A study of Mus musculus with 7 samples.

Results

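The genes described here encode the scaffold of the postsynaptic density, the protein layer beneath the membrane of an excitatory synapse. They are 9 genes chosen by symbol, Dlg2, Dlg3 and Dlg4, Dlgap1, Shank1, Shank2 and Shank3, Homer1 and Camk2a, and all 9 were found among the 19257 genes of the deposited table. They were measured by bulk RNA-Seq of endpoint brain tumors in mice, 1 library per brain, in 3 tumors labelled 3xCR (numbered 2, 3 and 4) and 4 labelled GPC6 (numbered 1 to 4). Tumors of both groups were started by electroporation of embryonic progenitor cells at the lateral ventricle with a construct that carried Cas9 and guides against tumor suppressor genes, Trp53 and Nf1 included, in mice of CD-1 and C57BL/6 backgrounds. For the GPC6 group, overexpression of GPC6 from a piggyBac transposon was added. GPC6 is a cell-surface glypican, known as a glial factor that promotes excitatory synapses. The transposon enters electroporated cells only, and the tissue was picked under fluorescence, so a library could hold neurons, glia and immune cells beside tumor cells. The age at endpoint and the sex of the animals were not used here, and neither group is a brain without tumor.

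At an excitatory synapse the membrane-associated guanylate kinases of the Dlg family bind the tails of NMDA receptors, AMPA receptor auxiliary subunits and neuroligins through their PDZ domains. Dlgap1 links their guanylate kinase domain to the Shank proteins, and Shank proteins bind Homer, which in turn holds metabotropic glutamate receptors and the release channels of internal calcium stores. Camk2a encodes a subunit of calcium/calmodulin-dependent kinase II, the abundant kinase of the density that is activated during synaptic plasticity. In the adult forebrain these genes are expressed mainly by neurons.

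The promoters of 6 of the 9 genes were matched by symbol in RefSeq windows of GRCm38.p6 that run from 250 bases before to 50 bases after a transcription start, 13 windows in all. They differed widely in base composition, from 1 to 40 CpG. A window of Shank3 and the richest of the 3 windows of Dlg2 are shown for that contrast, with every CpG in capitals, Shank3 at chr15:89499358-89499657 and Dlg2 at chr7:91090536-91090835, both on the plus strand. The 3 windows of Dlg2 lie inside the annotated gene, which begins at base 90476672, so its outermost annotated start was not examined. The Shank3 window held 40 CpG, more than 96.1% of the 32851 mouse promoter windows, and the Dlg2 window held 3, more than 23.3% of them, with 7 as the median of all windows.
Shank3: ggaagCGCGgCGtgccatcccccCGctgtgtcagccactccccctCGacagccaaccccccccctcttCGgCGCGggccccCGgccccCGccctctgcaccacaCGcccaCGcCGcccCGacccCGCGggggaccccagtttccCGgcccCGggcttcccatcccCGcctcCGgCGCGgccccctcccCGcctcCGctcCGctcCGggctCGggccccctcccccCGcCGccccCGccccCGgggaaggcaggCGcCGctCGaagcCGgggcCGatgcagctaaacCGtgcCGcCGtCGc
Dlg2: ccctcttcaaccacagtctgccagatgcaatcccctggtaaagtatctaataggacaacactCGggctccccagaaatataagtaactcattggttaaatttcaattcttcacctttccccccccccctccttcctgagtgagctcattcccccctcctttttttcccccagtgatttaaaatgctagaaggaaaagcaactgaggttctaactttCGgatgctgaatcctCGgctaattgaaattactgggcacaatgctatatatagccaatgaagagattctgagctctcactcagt

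TGACG, a core of the element bound by the CREB family, was searched on both strands together with TGACGTCA, which contains it, and GGGCGG, the core bound by Sp1. TGACG was present in 3 of the 13 windows against 20.8% of all windows, TGACGTCA in 0 of 13 against 1.79%, and GGGCGG in 3 of 13 against 35.7%. The motifs CACGTG, TTCAGCACC and GGACAGC were searched as well. CACGTG was present in 1 of 13 against 7.15%, TTCAGCACC in 0 of 13 against 0.371%, and GGACAGC in 0 of 13 against 6.56%. A window of Homer1 at chr13:93303507-93303806, on the plus strand, held TGACG 3 times, and 1.03% of all windows held at least 3 copies. It is shown beside a window of Dlg4 at chr11:70023732-70024031, also on the plus strand, which held it once, with TGACG in capitals. A match describes the letters and is not a measured binding site.
Homer1: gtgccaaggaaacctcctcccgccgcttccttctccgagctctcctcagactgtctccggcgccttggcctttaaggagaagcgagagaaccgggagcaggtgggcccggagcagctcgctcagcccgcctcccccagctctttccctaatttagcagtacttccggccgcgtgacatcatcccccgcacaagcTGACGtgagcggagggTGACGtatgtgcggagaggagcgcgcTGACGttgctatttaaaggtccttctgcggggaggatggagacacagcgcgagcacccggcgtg
Dlg4: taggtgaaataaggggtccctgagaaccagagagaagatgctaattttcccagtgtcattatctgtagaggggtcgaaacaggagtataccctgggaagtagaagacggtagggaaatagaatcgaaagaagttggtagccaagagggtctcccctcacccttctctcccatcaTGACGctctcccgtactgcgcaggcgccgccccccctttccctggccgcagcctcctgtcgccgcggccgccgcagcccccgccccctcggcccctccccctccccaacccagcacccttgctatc

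The values are normalized counts, which are reads per gene divided by a size factor per library. Reads counted on genes ranged from 7197692 to 18879762 per library, and the fewest reads behind any value of the 9 genes were 24, for Shank1 in 3xCR replicate 4. Gpc6, which checks the labels, had 217, 226 and 126 normalized counts in the 3xCR tumors 2, 3 and 4, and 675, 263, 3434 and 5084 in the GPC6 tumors 1 to 4, so that 1 library of the GPC6 label, replicate 2, was close to the 3xCR values. GPC6 replicate 1 stood apart from the others, with 541 normalized counts of the hypothalamic gene Avp against at most 7.10 elsewhere. All 15 genes of a pan-neuronal marker list, Snap25 as the most abundant, were detected and tested. Each gene's log2 values were centred on their mean over the 7 libraries, and the average over a list is called its score. The pan-neuronal score was 1.99, -0.85, 1.26 and -0.07 for the GPC6 tumors 1 to 4, and -0.19, -0.68 and -1.47 for the 3xCR tumors 2, 3 and 4.

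For all 9 scaffold genes the mean log2 value was greater in GPC6 than in 3xCR tumors, with log2 fold changes from 0.87 for Dlg3 to 3.04 for Camk2a and a median of 1.30. None passed the test across all genes (limma on log2(normalized count + 1), two-sided, adjusted over 14782 genes). The same test called 0 genes, 0.0% of all tested, and 689 genes (4.66%) were below an unadjusted p of 0.05 in either direction. At an adjusted p under 0.05 the count was 0 with edgeR, 0 with voom and 4 with DESeq2 (0.0211% of 18973 genes). The median over all genes tested was -0.02, and a higher mean log2 value was found in 48.3% of them and a log2 fold change of at least 1 in 8.15%. Of the scaffold genes, 7 of 9 reached at least 1, all but Dlg3 and Dlgap1. In bulk tissue a lower count may come from fewer cells of a type or from less RNA per cell, and these cannot be told apart.

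**Figure D1:**
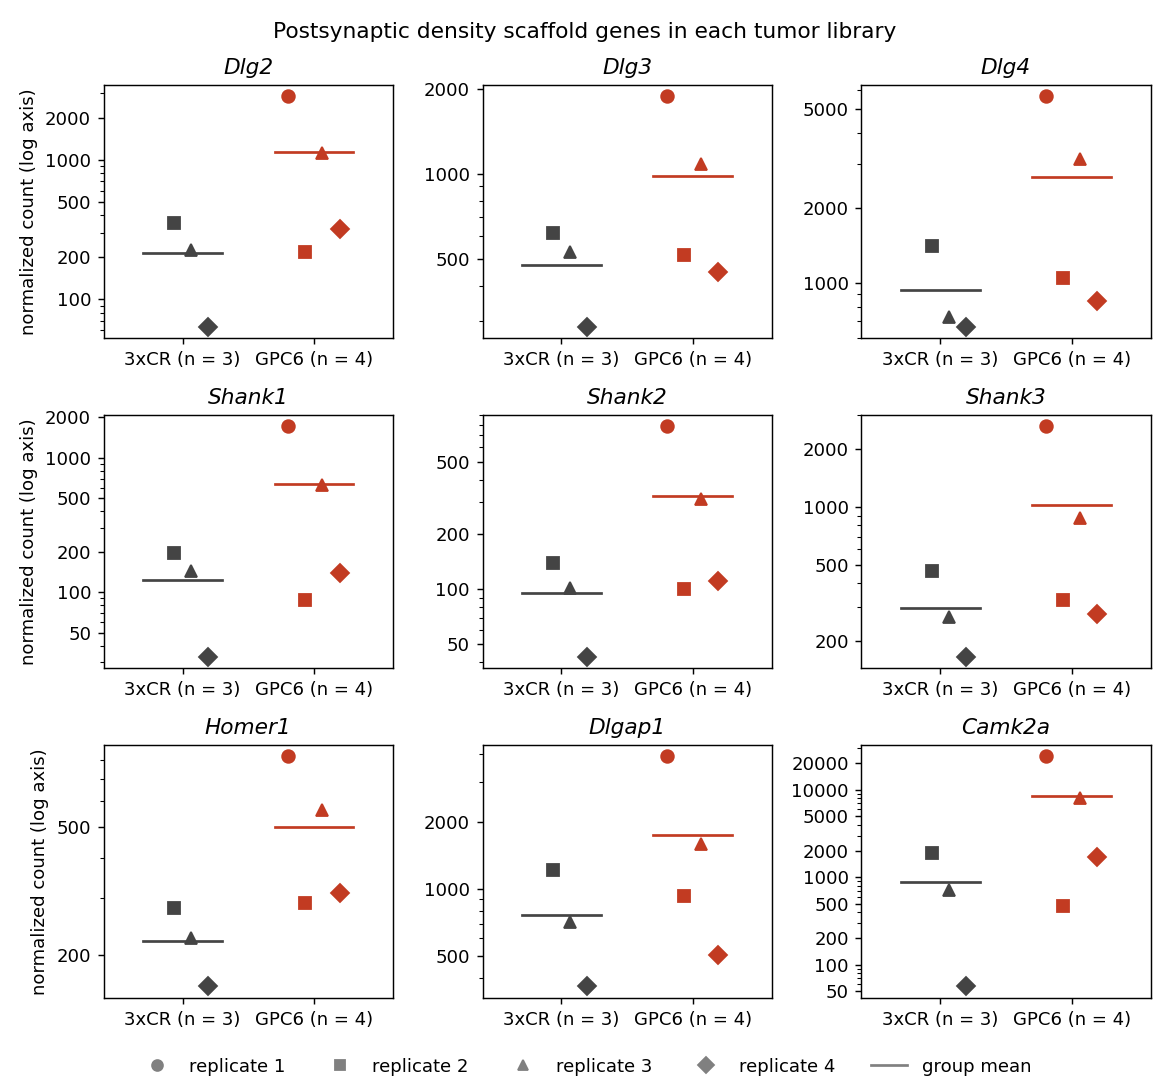
Normalized count (log axis, 1 panel per gene with its own range) of the 9 scaffold genes in each library of 3xCR (dark gray, n = 3) and GPC6 tumors (red, n = 4), with the replicate number shown by the shape of the symbol and the group mean by a line. In every panel GPC6 replicate 1 is the highest, GPC6 replicate 3 the next and 3xCR replicate 4 the lowest, while GPC6 replicates 2 and 4 lie among or near the other 3xCR libraries.

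The higher means rested on the same libraries in each gene, as the plot of normalized counts by library shows. GPC6 replicate 1 was the highest library and GPC6 replicate 3 the next highest for 9 of 9 genes, and 3xCR replicate 4 was the lowest for 9 of 9. GPC6 replicates 2 and 4 were each above 3xCR replicate 2 for 1 of 9 genes, Homer1, and below it for the other 8. GPC6 replicate 2 was above 3xCR replicate 3 for 4 of 9 genes and GPC6 replicate 4 for 6 of 9. The groups therefore overlapped for 8 of the 9 genes, and for Homer1 they did not, where 2.8% of all genes tested had groups that did not overlap with GPC6 higher.

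Dlg4 encodes PSD95, the most studied scaffold of the excitatory synapse and the protein that labels it in the stainings of the study. It lies on chromosome 11 of GRCm38 from 70016942 to 70047522. Its normalized counts were 1402, 725 and 664 in the 3xCR tumors 2, 3 and 4, and 5637, 1047, 3146 and 841 in the GPC6 tumors 1 to 4. GPC6 replicates 1 and 3 were above all 3xCR libraries, and GPC6 replicates 2 and 4 lay inside the 3xCR range. The means were 2668 ± 2237 (SD, n = 4) for GPC6 and 930 ± 410 (SD, n = 3) for 3xCR tumors. The log2 fold change, taken between mean log2 values, was 1.18 (standard error 0.67, 95% interval -0.38 to 2.74, limma adjusted p = 0.730). The GPC6 libraries thus differed among themselves by more than the group means did, with 5.38 times as many counts in replicate 1 as in replicate 2.

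Dlg2 encodes PSD93, the closest relative of PSD95, and spans 1973 kb of chromosome 7, from 90476672 to 92449247. Its normalized counts were 349, 227 and 63.5 in the 3xCR tumors 2, 3 and 4, and 2850, 219, 1127 and 318 in the GPC6 tumors 1 to 4. GPC6 replicate 2 was below 3xCR replicates 2 and 3, so the groups overlapped. The log2 fold change was 2.00 (standard error 0.96, 95% interval -0.21 to 4.21, limma adjusted p = 0.730), the second largest of the 9. Dlg3, on the X chromosome, encodes SAP102, a scaffold known for its role in NMDA receptor trafficking early in development. It had 614, 526 and 287 normalized counts in the 3xCR tumors 2, 3 and 4, and 1875, 515, 1080 and 449 in the GPC6 tumors 1 to 4. Its log2 fold change of 0.87 was the smallest of the 9 (standard error 0.53, 95% interval -0.36 to 2.10, limma adjusted p = 0.730), and GPC6 replicates 2 and 4 were both below 3xCR replicates 2 and 3.

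Dlgap1 encodes GKAP, the adaptor between the Dlg and Shank layers, and lies on chromosome 17 from 69969073 to 70821413. Its normalized counts were 1211, 708 and 366 in the 3xCR tumors 2, 3 and 4, and 3915, 931, 1594 and 508 in the GPC6 tumors 1 to 4. GPC6 replicate 4 was below 3xCR replicates 2 and 3, as it was for Dlg3 and Shank1. The log2 fold change was 0.95 (standard error 0.70, 95% interval -0.66 to 2.56, limma adjusted p = 0.734).

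The 3 Shank genes encode large proteins that tie the upper layer of the density to Homer and the actin cytoskeleton. Shank3, on chromosome 15 from 89499623 to 89560261, had 463, 267 and 166 normalized counts in the 3xCR tumors 2, 3 and 4, and 2626, 326, 873 and 277 in the GPC6 tumors 1 to 4. Shank1, on chromosome 7 from 44310253 to 44360572, had 195, 143 and 33.1 in the 3xCR libraries and 1713, 87.9, 622 and 140 in the GPC6 libraries, in the same order of replicates. Shank2, on chromosome 7 from 144001928 to 144424494, had 140, 102 and 42.8 in the 3xCR libraries and 782, 101, 312 and 111 in the GPC6 libraries. In each of them GPC6 replicates 2 and 4 fell between 3xCR replicates 2 and 4, and GPC6 replicates 1 and 3 lay above all 3xCR libraries. The log2 fold changes were 1.30 for Shank3 (standard error 0.78), 1.78 for Shank1 (standard error 1.08) and 1.42 for Shank2 (standard error 0.77), each with a limma adjusted p = 0.730 and a 95% interval that included 0. Without GPC6 replicate 1 they were 0.65 for Shank3, 1.00 for Shank1 and 0.83 for Shank2, and without 3xCR replicate 4 they were 0.94, 1.02 and 0.93. An antisense gene, 1700008O03Rik, shares 339 bases with the exons of Shank1 (3.22% of them), and its mean of 10.9 normalized counts was low beside that of Shank1. The ratio of GPC6 replicate 1 to GPC6 replicate 2 was 19.5 for Shank1, 8.05 for Shank3 and 7.76 for Shank2.

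Homer1 encodes the scaffold that joins Shank to group I metabotropic glutamate receptors, and a short form of it is made from the same gene in response to activity. Counts per gene cannot separate the forms. The gene lies on chromosome 13 from 93299635 to 93405129. Its normalized counts were 280, 226 and 160 in the 3xCR tumors 2, 3 and 4, and 824, 290, 562 and 312 in the GPC6 tumors 1 to 4. It was the only one of the 9 whose groups did not overlap, although the gap between GPC6 replicate 2 and 3xCR replicate 2 was small beside the spread within either group. The means were 497 ± 250 (SD, n = 4) for GPC6 and 222 ± 60.03 (SD, n = 3) for 3xCR tumors, and the log2 fold change was 1.06 (standard error 0.41, 95% interval 0.10 to 2.02, limma unadjusted p = 0.034, adjusted p = 0.730). Homer1 was thus 1 of 9 at an unadjusted p under 0.05 with a higher value in GPC6, beside 2.74% of all genes tested. This call was lost without 3xCR replicate 3 (limma unadjusted p = 0.070), 3xCR replicate 4 (0.118), GPC6 replicate 1 (0.059) or GPC6 replicate 3 (0.082).

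Camk2a had both the largest fold change and the largest spread. Its normalized counts were 1912, 714 and 56.6 in the 3xCR tumors 2, 3 and 4, and 24075, 474, 8006 and 1698 in the GPC6 tumors 1 to 4. The highest library held 425 times as many counts as the lowest, against 5.14 times for Homer1 and 6.53 times for Dlg3. GPC6 replicate 2 was below 3xCR replicates 2 and 3, and GPC6 replicate 4 was below 3xCR replicate 2. The means were 8563 ± 10855 (SD, n = 4) for GPC6 and 894 ± 941 (SD, n = 3) for 3xCR tumors. The log2 fold change, again between mean log2 values, was 3.04 (standard error 1.55, 95% interval -0.55 to 6.64, limma adjusted p = 0.730). Without 3xCR replicate 4 the log2 fold change of Camk2a was 1.59 and without 3xCR replicate 2 it was 4.12. Camk2a made up 54.3% of the reads of the 9 genes in GPC6 replicate 1 and 3.08% in 3xCR replicate 4.

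**Figure D2:**
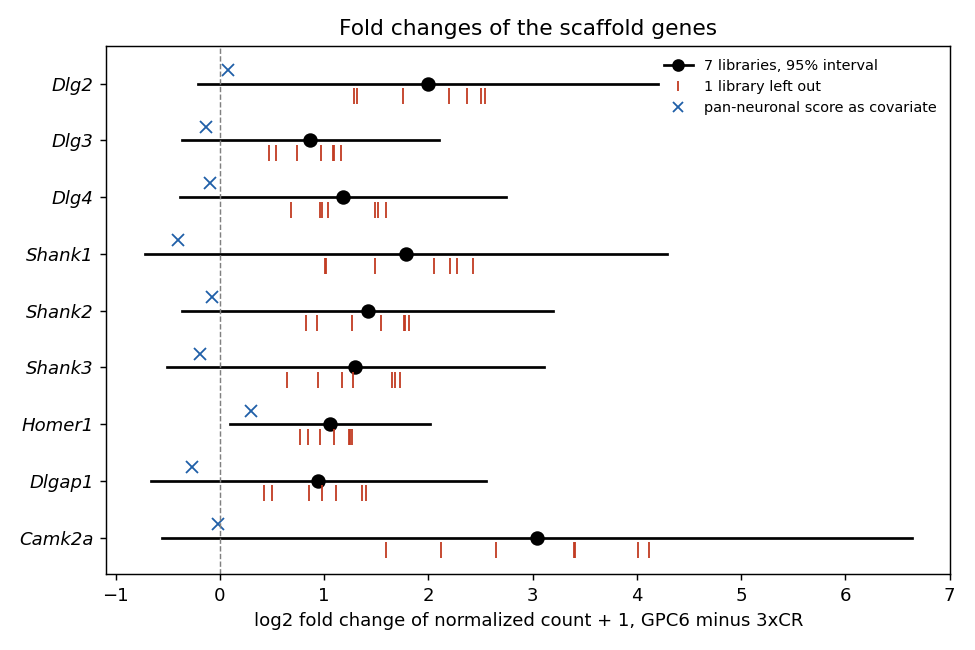
Log2 fold change of normalized count + 1, GPC6 minus 3xCR, for the 9 scaffold genes: points are the limma estimates over 7 libraries, lines their 95% intervals, red ticks the estimates with 1 library left out and blue crosses those with the pan-neuronal score as a covariate. All points and ticks lie above 0, the interval includes 0 for all but Homer1, and the crosses lie between -0.40 and 0.30.

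The number of scaffold genes below an unadjusted p of 0.05 depended on the tool, and an adjusted p under 0.05 was reached only in the fit with weights estimated per library. On the recovered reads DESeq2, the tool of the study, put 7 of the 9 genes below an unadjusted p of 0.05 (not Dlg3 and Dlgap1) with adjusted p of 0.337 to 0.439, beside 6.81% of all genes it tested that were below it with GPC6 higher. The 0 scaffold genes at an adjusted p under 0.05 stood beside 0.00527% of all genes with GPC6 higher. The quasi-likelihood test of edgeR put 2 there, Dlg2 and Homer1, beside 3.75%, and voom put 0 there, beside 1.45%. With library weights in limma, 9 of the 9 were below an unadjusted p of 0.05, beside 18.4%, and 6 of the 9 had an adjusted p under 0.05, Dlg2, Dlg4, Shank2, Shank3, Homer1 and Camk2a, beside 9.36% of all genes that were called with GPC6 higher. Those weights were 8.71 for 3xCR replicate 3 and 4.47 for GPC6 replicate 3. The remaining libraries had 0.30 (GPC6 replicate 1) to 0.85 (3xCR replicate 2). That fit thus rested mainly on 3xCR replicate 3 and GPC6 replicate 3.

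The 9 genes followed each other across the libraries. The Pearson correlation of their log2 values, over the same 7 libraries and given as a description, was between 0.88 (Camk2a and Dlgap1) and 0.99 (Shank2 and Dlg2) for the 36 pairs. Each also followed the pan-neuronal score, with r from 0.88 for Dlgap1 to 0.99 for Dlg2. The genes differed in how far they moved, as the log2 value changed by 2.24 for Camk2a, 1.49 for Shank1 and 1.43 for Dlg2 per unit of the pan-neuronal score, and by 0.70 for Dlg3 and 0.64 for Homer1. With the score as a covariate in limma the 9 log2 fold changes lay between -0.40 (Shank1) and 0.30 (Homer1). Of these 7 were below 0, and 0 of the 9 had an unadjusted p under 0.05. The list behind the score includes the synaptic genes Snap25, Syt1 and Syp, with log2 fold changes of 3.02, 2.70 and 2.10. Its 15 genes ranged from 0.16 (Stmn2) to 3.02, with a median of 1.30. The score is therefore not a measure of neuron number alone.

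**Figure D3:**
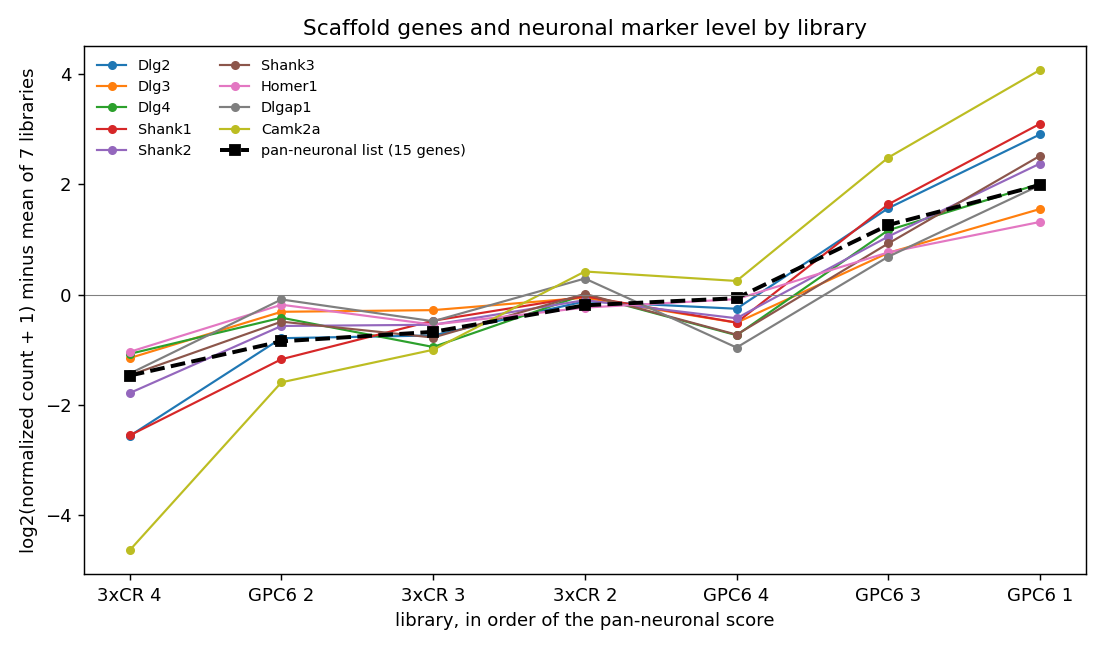
Log2(normalized count + 1) of each scaffold gene minus its mean over the 7 libraries (colored lines), with the mean of the 15 pan-neuronal genes (black dashed line), for libraries placed in order of that pan-neuronal score. The scaffold genes lie below 0 in 3xCR replicate 4 and above 0 in GPC6 replicates 1 and 3, and Camk2a covers the widest range, from -4.63 to 4.07.

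The mean of the 9 genes, centred in the same way, was 2.43, -0.62, 1.23 and -0.44 for the GPC6 tumors 1 to 4, and 0.02, -0.64 and -1.97 for the 3xCR tumors 2, 3 and 4. It lay above the pan-neuronal score by 0.44 in GPC6 replicate 1, 0.22 in GPC6 replicate 2 and 0.21 in 3xCR replicate 2, and below it by -0.37 in GPC6 replicate 4 and -0.50 in 3xCR replicate 4. The differences from the neuronal list were thus of either sign in both groups. Markers of other cells moved as well. All 9 microglia genes were lower by mean log2 value in GPC6 tumors, 4 of them without overlap (3.52% of all genes tested had groups that did not overlap with GPC6 lower). Their summed level was 29393 to 52914 normalized counts in 3xCR and 15514 to 27384 in GPC6 libraries. The 15 pan-neuronal genes summed to 11020 to 18156 in 3xCR and 15442 to 83312 in GPC6 libraries, and none of these markers was at 0 in all libraries. Summed proliferation markers (10 genes) were 5613 to 12893 in 3xCR and 726 to 15052 in GPC6 libraries. The part of these cells in the scaffold values was not tested. The fit with the neuronal score cannot tell it, since that score holds synaptic genes and follows the scaffold genes over the same libraries.

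Levels of different genes were compared per kilobase of the principal transcript of GENCODE M21. Camk2a averaged 1062 normalized counts per kilobase over the 7 libraries and Dlg4 551, followed by Dlgap1 with 250, Dlg3 with 156, Homer1 with 137, Shank3 with 100.1, Dlg2 with 98.3, Shank1 with 42.7 and Shank2 with 25.3. The difference between any neighbours in this order was smaller than the larger of their SDs within the GPC6 group. Within libraries, Dlg4 was above Dlgap1, Dlgap1 above Dlg3 and Dlg2 above Shank1 in all 7, while the other neighbours changed places in at least 1 library. Camk2a and Dlg4 changed places between libraries, with Dlg4 first in the 3 3xCR libraries and GPC6 replicate 2 and Camk2a first in GPC6 replicates 1, 3 and 4. Shank1 and Shank2 held the last 2 places in every library. Per kilobase of all annotated exons, Homer1 took place 8 and Dlg3 place 3, while Camk2a and Dlg4 stayed in the first 2 places.

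Within the Dlg genes Dlg4 took 60.1% to 73.9% of the summed counts per kilobase of principal transcript of Dlg2, Dlg3 and Dlg4. Its share was 68.0% ± 7.11 (SD, n = 3) in 3xCR and 68.0% ± 2.79 (SD, n = 4) in GPC6 tumors. The size of such a share depends on the length used. Per kilobase of all annotated exons, the means over the 7 libraries were 145 for Dlg4, 131 for Dlg3 and 45.2 for Dlg2. The share of Dlg2 was the most variable in relative terms, from 3.29% in 3xCR replicate 4 to 15.99% in GPC6 replicate 1. It averaged 6.72% ± 2.99 (SD, n = 3) in 3xCR and 11.5% ± 3.78 (SD, n = 4) in GPC6 tumors, with overlap. Within the Shank genes Shank3 took 55.5% to 74.1%, Shank1 10.8% to 28.7% and Shank2 13.8% to 18.9%. Shank1 had its lowest shares in 3xCR replicate 4 and GPC6 replicate 2, and its highest in GPC6 replicates 1 and 3, so the libraries with the most scaffold counts also had the most Shank1 relative to Shank3.

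**Figure D4:**
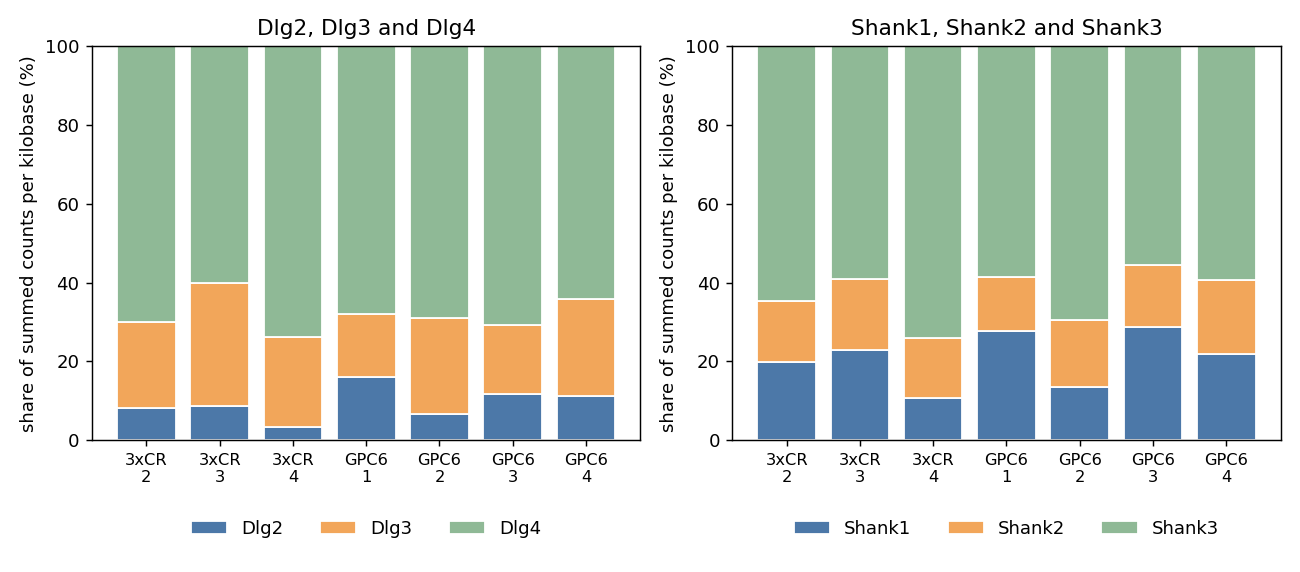
Share (%) of each gene in the summed normalized counts per kilobase of principal transcript, 1 bar per library. Dlg2, Dlg3 and Dlg4 are on the left, and Shank1, Shank2 and Shank3 on the right. Dlg4 holds 60.1% to 73.9% and Shank3 55.5% to 74.1% in all 7 libraries.

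The paralogs of the scaffold genes, described after their values had been seen, differed in size of change. Dlg1, which is expressed in many cell types, had 911 ± 59.7 normalized counts (SD, n = 3) in 3xCR and 1070 ± 461 (SD, n = 4) in GPC6 tumors, a log2 fold change of 0.14 (limma adjusted p = 0.902). Camk2d, the kinase subunit known from heart and glia, had 799 ± 186 (SD, n = 3) and 805 ± 206 (SD, n = 4), a log2 fold change of -0.01 (limma adjusted p = 0.996). Camk2b, the other main neuronal subunit, had 1840, 768 and 464 in the 3xCR tumors 2, 3 and 4, and 9200, 1895, 3900 and 1185 in the GPC6 tumors 1 to 4, a log2 fold change of 1.78 (limma unadjusted p = 0.043, adjusted p = 0.730). Dlgap2 and Dlgap3 had log2 fold changes of 2.51 and 2.17 and Dlgap4 of 0.61. Homer2 was at 0.96, Camk2g at 0.62 and Homer3 at -0.56 (limma adjusted p = 0.730). None of these differences passed adjustment, and differences between paralogs were not tested.

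**Figure D5:**
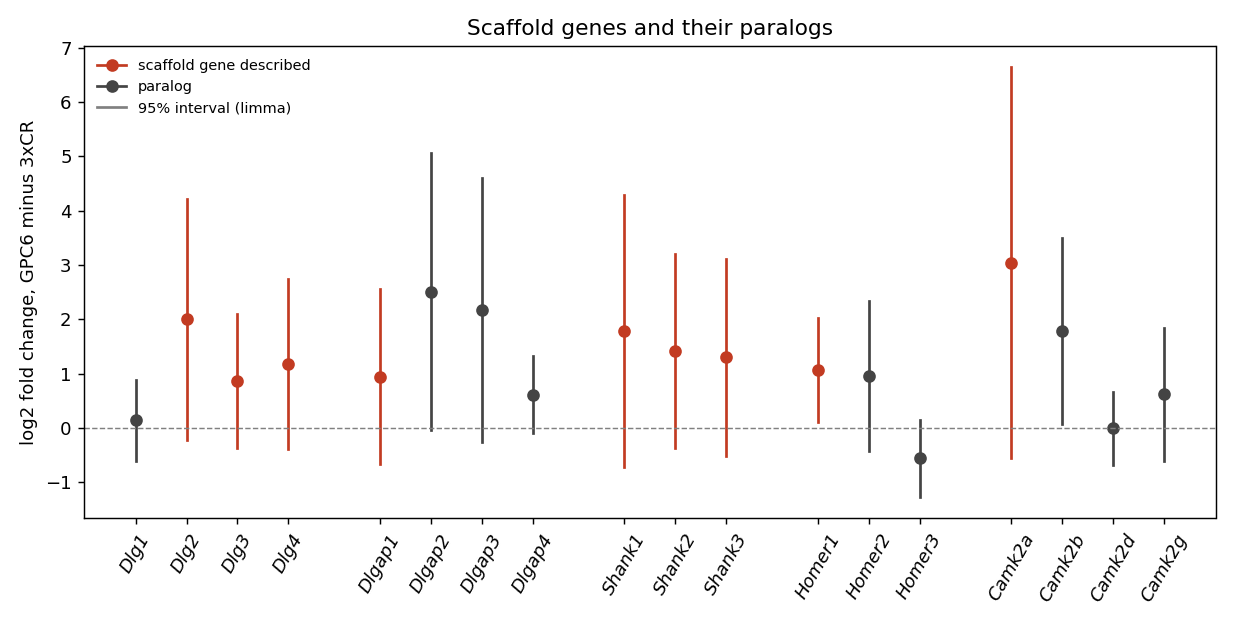
Log2 fold change of normalized count + 1, GPC6 minus 3xCR, with its 95% interval from limma, for the 9 scaffold genes (red) and 9 paralogs (dark gray), grouped by family. Dlg1, Camk2d and Homer3 lie between -0.56 and 0.14, and Camk2a, Dlgap2 and Dlgap3 lie between 2.17 and 3.04.

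Of 31 other genes of the postsynaptic density, 28 were higher and 3 lower by mean log2 value in GPC6 tumors, with a median log2 fold change of 0.96. The paralogs described above are among these 31 genes. None passed adjustment, and 3 were below an unadjusted p of 0.05 with GPC6 higher, where all genes tested gave 48.3% higher and 2.74% below this p with GPC6 higher. These were Lrrc7 (densin, 1.69), Camk2b (1.78) and Ppp1r9a (neurabin, 1.68, an actin-binding protein of spines). Dynll2, a dynein light chain that binds GKAP and the most abundant of the list, had a log2 fold change of 0.54, and Cnksr2, a scaffold that binds PSD95, had the largest with 2.63 (limma unadjusted p = 0.053).

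A list of 24 receptors and adhesion proteins held partners of the scaffold in the membrane or at the store, and also Nlgn2 of inhibitory synapses. Of these genes 23 were higher by mean log2 value in GPC6 tumors, with a median log2 fold change of 1.33. None passed adjustment, and 8 were below an unadjusted p of 0.05, all with GPC6 higher, beside 2.74% of all genes tested. Grin1, the obligatory NMDA receptor subunit, had 151, 90.2 and 11.0 normalized counts in the 3xCR tumors 2, 3 and 4, and 3110, 261, 1026 and 174 in the GPC6 tumors 1 to 4. Every GPC6 library was above every 3xCR library, and the log2 fold change was 3.49 (standard error 1.18, limma unadjusted p = 0.019, adjusted p = 0.730). Gria3, an AMPA receptor subunit, did not overlap between groups either (2 of 24 genes, beside 2.8% of all genes), with a log2 fold change of 1.31 (limma unadjusted p = 0.025). Lrfn2, Nlgn1 and Cacng3 were at 1.53, 1.05 and 2.83. Nlgn2, the neuroligin of inhibitory synapses and the most abundant of the list, was at 0.38, and Cacng4 was the gene with a lower mean, at -0.08.

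The genes whose levels followed the mean of the 9 scaffold genes most closely over the 7 libraries were Slc25a14, Ppfia3, Arhgap44, Rnf112 and Scn8a, each with a Pearson r of 0.997 to 0.998. Slc25a14 encodes a mitochondrial carrier, Ppfia3 a liprin of the presynaptic active zone, Arhgap44 a GTPase-activating protein, Rnf112 a ring finger protein of the brain and Scn8a a voltage-gated sodium channel. Dlg4 alone was followed most closely by Neurl1a (r of 0.997), Bean1 and Slc4a3 (r of 0.996 for both). At a looser limit, 1325 of 14773 genes (8.97%) had an r of at least 0.9 with the mean of the scaffold genes.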

How the data were processed

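Bulk RNA-Seq libraries (TruSeq Stranded mRNA) were made from 7 brains, with groups and replicate numbers as the labels give them. The authors aligned reads to mm10 with STAR 2.5.0a, counted them per gene, and deposited the counts divided by DESeq2 1.20.0 size factors, which is a linear normalized signal without correction for gene length. The counting annotation, and whether strand was used, are not given in the sources used here. Entries with names turned into dates (25 of 19282, 0.254% to 0.361% of reads) were left out, and 0 further columns were present. Whole reads were recovered for 100% of the values (tolerance 0.01 reads). A count of 0 allows up to 3 reads, which covers counting error only.

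limma 3.58.1 in R 4.3.3 was run on log2(normalized count + 1) with a trended variance, two-sided, over 14782 genes with a mean of at least 10, and p-values were adjusted by Benjamini-Hochberg. Fold changes refer to this scale and understate those of low genes. Alternatives were other pseudocounts, filters, scalings and variance models, library weights, a replicate block, the pan-neuronal score as covariate, removal of a length and GC trend, each library left out, and edgeR 4.0.16, voom and DESeq2 1.42.0 on the recovered reads. Lengths came from GENCODE M21 (96.0% of genes matched) and promoter windows from RefSeq. The genes and the lists were chosen with earlier results of these data known. Named from each list were the genes of highest mean and of largest and smallest change, and up to 5 at an unadjusted p under 0.05. A gene that this rule names is not reported here. Only 4 against 3 brains were compared, and an exact permutation test of 1 value cannot go below p = 0.057.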

Additional observations from a re-analysis of the deposited data

Results flagged for a closer look

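Of 57 quantities examined among the 4 GPC6 tumors, the scaffold genes included, 2 had a single library far from the other GPC6 libraries, where chance gives 2.85. Neither was a scaffold gene, and both concerned GPC6 replicate 1, the library with the most scaffold counts. Ttr, the transthyretin gene of the choroid plexus, had 11813 normalized counts there, where the remaining GPC6 libraries had 10.9 to 31.9 and the 3xCR libraries 129 to 3240. The score of 10 proliferation genes was -3.12 there, where the remaining GPC6 libraries had 0.42 to 1.14 and the 3xCR libraries -0.14 to 1.02. Their part in the scaffold values was not tested.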

How the results depend on the processing

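The number of genes called at an adjusted p under 0.05, 0 in limma, was 1962 with library weights (6 scaffold genes) and 4 with DESeq2 (0 scaffold genes), and 0 in all other alternatives. The number of scaffold genes at an unadjusted p under 0.05, 1 in limma, was 9 with library weights, 7 with DESeq2, 2 with edgeR, and 0 each with voom, with the pan-neuronal score as covariate, with the length and GC trend removed and with the replicate block. Leaving out 1 library gave 0 to 4: 4 without GPC6 replicate 2, 2 without 3xCR replicate 2 or GPC6 replicate 4, and 0 without any of the others. The share of all genes below that p in either direction moved too. It was 9.45% without GPC6 replicate 2, 7.68% without 3xCR replicate 2 and 7.83% without GPC6 replicate 4. It was 2.56% without 3xCR replicate 3, 0.808% without 3xCR replicate 4, 3.14% without GPC6 replicate 1 and 2.61% without GPC6 replicate 3. With the pan-neuronal score as covariate the share was 2.21%, with the length and GC trend removed 4.36% and with the replicate block 4.59%. Without GPC6 replicate 1 the log2 fold changes were 1.31 for Dlg2, 0.47 for Dlg3, 0.68 for Dlg4, 0.42 for Dlgap1, 0.77 for Homer1 and 2.12 for Camk2a, and without 3xCR replicate 4 they were 1.29, 0.54, 0.98, 0.50, 0.84 and 1.59. The median log2 fold change of the scaffold genes, 1.30, was 0.77 (without GPC6 replicate 1) to 1.73 (without GPC6 replicate 4) with 1 library left out. It was 0.95 when GPC6 replicates 1 and 2 were both left out, a choice made after seeing the data. In that fit 1 of 9 genes was at an unadjusted p under 0.05, beside 6.09% of all genes in either direction. With the pan-neuronal score as covariate the median was -0.0898, and the log2 fold changes were -0.13 for Dlg3, -0.0898 for Dlg4, -0.40 for Shank1, -0.0709 for Shank2, -0.19 for Shank3, -0.27 for Dlgap1 and -0.0178 for Camk2a, with a sign opposite to that without it. The cause was not tested. With the replicate block the median was 0.77, and GPC6 replicate 1, which has no partner, added nothing. Libraries of the same number had deviations correlated at -0.19, 0.12 and 0.30, so the numbers were not taken to pair the brains. No alternative varied the depth, and a count of 0 allows 1.64 to 4.64 normalized counts per library, below every value of the scaffold genes.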

Other observations

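The postsynaptic side of inhibitory synapses differed between the libraries in a like way. All 10 genes of a list of it were higher by mean log2 value in GPC6 tumors, with a median log2 fold change of 1.41. Nlgn2 is in this list and was also counted with the receptors and adhesion proteins above. None passed adjustment in limma, and 2 were below an unadjusted p of 0.05 with GPC6 higher (beside 2.74% of all genes tested), Gabrb2 (a GABA-A receptor subunit, 1.75) and Slitrk3 (an adhesion protein of inhibitory synapses, 1.36).

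The order of the GPC6 libraries by Gpc6 was not their order by scaffold genes. GPC6 replicate 4 had the most Gpc6, 5084 normalized counts, and a sum of 4652 over the 9 scaffold genes, and GPC6 replicate 1 had 675 normalized counts of Gpc6 and a scaffold sum of 44297.

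GPC6 replicates 2 and 4, with scaffold sums of 3991 and 4652 normalized counts, differed most in Camk2a and Dlgap1. Camk2a was 3.58 times as high in replicate 4 as in replicate 2, and Dlgap1 0.546 times as high. The same ratio was 0.80 (Dlg4) to 1.59 (Shank1) in the remaining scaffold genes. The score of 6 cortical excitatory genes was -3.45 in replicate 2 and 0.50 in replicate 4, and that of 6 striatal genes 0.42 and -2.07. Over the 7 libraries Camk2a correlated with the cortical score at r = 0.943 and with the striatal score at 0.839, and Dlgap1 at 0.762 and 0.989. Among the remaining genes, Dlg2 (0.908 cortical, 0.893 striatal) and Shank1 (0.932, 0.889) also had the higher r with the cortical score. Dlg3 (0.856, 0.949), Dlg4 (0.796, 0.920), Shank2 (0.885, 0.919), Shank3 (0.827, 0.938) and Homer1 (0.839, 0.882) had it with the striatal score. Several of these pairs are close, the differences were not tested, and for all genes but Dlgap1 the r with the pan-neuronal score was higher than either. These are descriptions over shared libraries, among them the GPC6 replicates by which Camk2a and Dlgap1 were picked.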
